A study of Mus musculus with 16 samples.

Results

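The 6 genes described here, Serpina3f, Serpina3g, Serpina3n, Serpinb1a, Serpinb6a and Serpinb9, are serpins with known roles around leukocyte proteases. They were found by symbol among the 24562 entries, 1 per gene, of a mouse RNA sequencing count table, in which 57 other serpins also had a row. The study compared sorted peritoneal B1b cells and whole aortas of ApoE-/- mice, a strain prone to atherosclerosis, between animals labelled wt and animals labelled cre. In the second, per the series, B cells lack CD40, through which helper T cells signal to B cells. There were 3 wt and 3 cre libraries of B1b cells, and 5 wt and 5 cre libraries of aorta, all ApoE-deficient. The sources used here do not give the promoter that drives Cre, the ages or the diet. They do not say that each library came from its own animal either, and p-values cover only the spread between libraries. The members were selected on their read counts in the B1b comparison of cre with wt, given with the B1b values.

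Serpins are protease inhibitors that act once. The protease cuts an exposed reactive centre loop, the serpin changes shape, and the enzyme is left trapped in a covalent complex. Clade A serpins such as the Serpina3 group are mostly secreted, and the mouse carries a cluster of Serpina3 genes where humans have a single one. Clade B serpins stay inside the cell, where they protect leukocytes from the granule and lysosomal proteases they carry.

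On chromosome 12 of GRCm38.p6, the assembly behind mm10, the 3 clade A genes lie on the plus strand. Serpina3f spans 104214544 to 104221129, Serpina3g 104236147 to 104241939, and Serpina3n 104406646 to 104414334. Serpina3f and Serpina3g are 15.0 kb apart, and Serpina3n lies a further 164.7 kb away. The clade B genes lie on chromosome 13, with Serpinb1a at 32842092 to 32853206, Serpinb9 at 32997061 to 33017955 and Serpinb6a at 33917918 to 34002794. Promoter sequences of the Serpina3 genes are shown because Serpina3f and Serpina3g were both higher in B1b cells than in aortas, while their neighbour Serpina3n was lower. Each line holds the 250 bases before 1 annotated RefSeq transcript start on the plus strand of GRCm38.p6, with matches to the interferon gamma activated motif TTCNNNGAA in capitals. The windows are chr12:104214294-104214543, chr12:104235897-104236146 and chr12:104406458-104406707. The start used for Serpina3n, 104406708, lies inside the span given above, so the end of its window does too.
Serpina3f: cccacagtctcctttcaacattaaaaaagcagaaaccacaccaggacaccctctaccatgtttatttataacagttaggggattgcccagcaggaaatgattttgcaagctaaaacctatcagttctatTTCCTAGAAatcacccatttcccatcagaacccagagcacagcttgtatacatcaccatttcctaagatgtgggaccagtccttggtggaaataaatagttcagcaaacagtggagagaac
Serpina3g: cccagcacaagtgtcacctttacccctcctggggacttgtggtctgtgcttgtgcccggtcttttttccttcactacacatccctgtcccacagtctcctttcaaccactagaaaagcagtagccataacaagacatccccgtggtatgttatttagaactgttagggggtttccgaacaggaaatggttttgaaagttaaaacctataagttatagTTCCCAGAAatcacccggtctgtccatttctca
Serpina3n: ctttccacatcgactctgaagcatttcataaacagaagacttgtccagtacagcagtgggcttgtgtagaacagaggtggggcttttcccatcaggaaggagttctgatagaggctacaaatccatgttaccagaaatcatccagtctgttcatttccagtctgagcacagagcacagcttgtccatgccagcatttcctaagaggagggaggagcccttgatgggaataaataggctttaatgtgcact

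Serpina3f and Serpina3g each held 1 such match, starting 121 and 33 bases before the transcript start, and the matches fell on each other when the promoters were aligned. Serpina3n held none in its window. Of 32851 RefSeq promoter windows of this length, 7.02% held the motif on either strand. A match to the NF-kB motif, found in 7.25% of windows, lay 85 bases before the start of Serpina3g and in none of the other members. Serpinb6a held a match to TTCNNNGAA 77 bases before 1 of its starts, and Serpinb9 held none of either motif before the start scanned. That start, 33004541, lies inside the span of Serpinb9 given above. The promoters of Serpina3f and Serpina3g were 82.6% identical over 144 aligned bases, and that of Serpina3n was 75.7% identical to the first over 214 and 74.7% identical to the second over 146. Serpinb1a was not among the 5 members with a promoter entry. These matches are letters in a window, not measured binding.

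The transcripts of the Serpina3 members resemble each other, which bears on every count of them. Aligned transcripts of Serpina3f and Serpina3g were 88.8% identical, and 5.05% of all 50-base windows of Serpina3f also occurred in Serpina3g. Serpina3g shared 2.91% of its windows with Serpina3n. Among the clade B members no 50-base window was shared, and identities ran from 63.8% to 68.6%. How reads that match several genes were counted is not stated in the sources used here, so the Serpina3 counts are uncertain to that degree.

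Each B1b library held 6815829 to 9911226 counts and each aorta 1645926 to 7300894, with 2 aortas under 2000000 (wt replicate 5 and cre replicate 2). Levels are CPM, counts scaled by library size after TMM normalization. A list of 10 B cell markers summed to 9948 to 10844 CPM in B1b libraries and 137 to 306 CPM in aortas, and a smooth muscle list to 13.7 to 23.9 and 9521 to 24468 CPM, so the labelled sample kinds carried their markers. Cd40 stood at 36.4 ± 2.22 CPM in wt and 32.7 ± 5.13 CPM in cre B1b cells (SD, n = 3 each), and the ranges overlapped. The altered part of Cd40 is not in the labels, so its count does not check the genotype, and cre stands throughout for libraries labelled cre.

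In B1b cells 3 members made up most of the serpin transcripts. Per kilobase of transcript, Serpina3g, Serpinb1a and Serpina3f together made up 83.3% ± 0.607 of the level of all serpins with a known transcript length in wt and 85.7% ± 1.802 in cre (SD, n = 3 each). In aortas the same 3 genes made up 0.973% ± 0.251 in wt and 0.891% ± 0.274 in cre (SD, n = 5 each). There, Serpina3n alone made up 20.5% ± 5.57 and 18.4% ± 6.55, and most of the rest came from serpins outside the 6. Of the 57 other serpins, 27 had 0 counts in all 6 B1b libraries, where 3 counts would be 0.303 to 0.440 CPM.

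**Figure D1:**
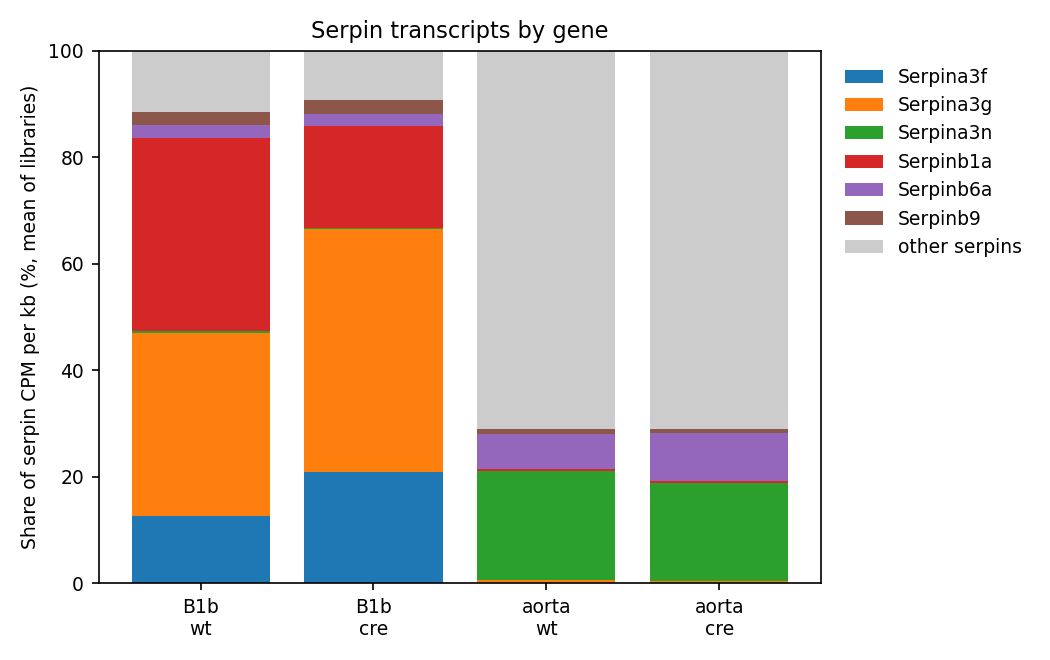
Share of the summed CPM per kilobase of 62 serpins held by each of the 6 members (colours) and by the other serpins together (grey), as means over the libraries of each group. Serpinb1a fills 36.3% of the wt B1b bar and 19.2% of the cre one, and Serpina3n is the largest coloured segment in aortas.

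Serpina3g, also known as Spi2A, is a Serpina3 member that stays inside the cell and inhibits lysosomal cathepsins. Its level in wt B1b cells was 97.3, 83.5 and 110.01 CPM in replicates 1 to 3, and in cre 168.95, 141.2 and 144.7 CPM. All 3 cre libraries lay above all 3 wt ones. The fitted log2 fold change of cre over wt was 0.63 (SE 0.10). In aortas Serpina3g was at 28.5, 15.1, 20.2, 30.5 and 7.41 CPM in wt and at 16.4, 26.04, 9.12, 13.0 and 22.3 CPM in cre. These ranges overlapped almost fully, and every aorta was below every B1b library. The share of all genes that separated B1b cells from aortas in this way is not reported here.

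Serpina3f, its neighbour in the cluster, followed the same order at a lower level. It stood at 49.7, 34.7 and 48.8 CPM in wt B1b cells and at 104.4, 79.5 and 76.2 CPM in cre, a log2 fold change of 0.95 (SE 0.14). The groups did not overlap. Its 3 annotated transcripts had similar counts in every library. In aortas it was near the lower end of detection, at 7.66, 2.44, 6.17, 5.72 and 3.17 CPM in wt and 2.94, 10.1, 3.84, 2.05 and 5.03 CPM in cre, from 6 to 40 counts. For each count of Serpina3g there were 0.511, 0.415 and 0.443 counts of Serpina3f in wt B1b libraries. In cre B1b libraries there were 0.618, 0.563 and 0.527. Both genes were selected on these B1b counts and may share reads, so nothing is read from this ratio. In aortas that ratio ran from 0.158 to 0.429.

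Serpinb1a, an intracellular inhibitor of neutrophil elastase, proteinase 3 and cathepsin G, went the other way in B1b cells. It was at 123.6, 98.8 and 102.8 CPM in wt and at 72.5, 66.9 and 63.5 CPM in cre, with no overlap and a log2 fold change of -0.69 (SE 0.11). Per kilobase, Serpinb1a (56.5 ± 6.96) and Serpina3g (53.8 ± 7.35) were level within their spread in wt (SD, n = 3), both above Serpina3f at 19.7 ± 3.75. In cre the order was Serpina3g at 84.1 ± 8.39, Serpina3f at 38.6 ± 6.86 and Serpinb1a at 35.3 ± 2.37, the last pair not separated by their spread. Aortas held 25.6, 21.8, 22.1, 25.8 and 16.9 CPM of Serpinb1a in wt and 18.8, 25.5, 10.8, 15.9 and 21.1 CPM in cre. Neutrophils carry large amounts of this serpin, and 12 neutrophil markers together came to 1.41 to 3.53 CPM in wt and 1.61 to 2.40 CPM in cre B1b libraries, against 37.7 to 106.5 CPM in aortas. Ly6g was at 0 in all B1b libraries and in all aortas.

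Serpinb9, the inhibitor of granzyme B, and Serpinb6a, an inhibitor of cathepsin G, were minor in B1b cells. Serpinb9 was at 10.6, 13.0 and 12.5 CPM in wt and at 18.4, 9.86 and 23.8 CPM in cre, so that cre held both the lowest and the highest values. Its log2 fold change of 0.52 (SE 0.24) became 0.24 without cre replicate 3 and 0.78 without cre replicate 2. Serpinb6a was nearly the same in all 6 libraries, at 6.80, 5.88 and 6.01 CPM in wt and 6.95, 5.49 and 6.22 CPM in cre (log2 fold change -0.01, SE 0.29).

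Serpina3n, a secreted inhibitor of leukocyte elastase, cathepsin G and granzyme B that is induced in the acute phase, was close to absent in B1b cells. The libraries held 10, 5 and 6 counts in wt and 3, 6 and 8 in cre, or 0.372 to 1.31 CPM, too few to enter the test between genotypes. These counts were 0.220% to 1.34% of the Serpina3g counts of the same libraries. Whether they came from shared Serpina3g reads was not tested. In aortas the proportion was turned round, with Serpina3g at 0.989% to 2.88% and Serpina3f at 0.298% to 0.775% of the Serpina3n counts. How much of the aortic Serpina3g and Serpina3f counts came from shared Serpina3n reads was not tested either.

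**Figure D2:**
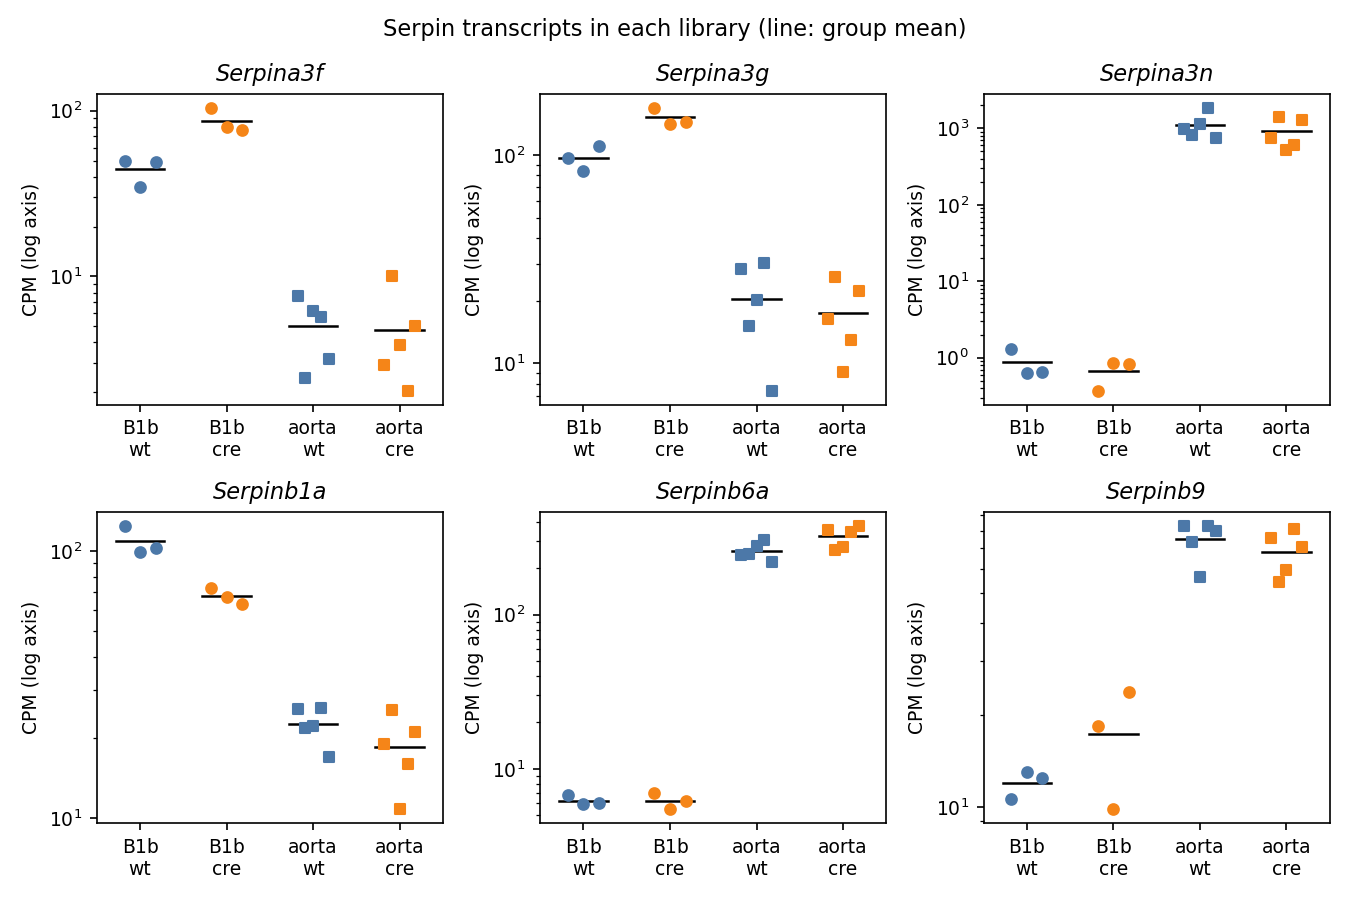
Level of each member in each library in CPM (log axis, scaled per panel), by group, with wt in blue, cre in orange, circles for B1b cells, squares for aortas and a line at the group mean. Serpina3f, Serpina3g and Serpinb1a are higher in every B1b library than in any aorta, and Serpina3n, Serpinb6a and Serpinb9 lower. Differences between these sample kinds were common. Within wt, 43.2% of 10867 genes with enough counts in each kind were higher in B1b cells and 29.2% lower (edgeR quasi-likelihood). The share of all genes that separated without overlap is not reported here.

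The members were chosen with the B1b difference between genotypes in view, so their calls in it follow from that choice. They are given for description, and nothing is read from them. Of the 5 members with enough counts, Serpina3f and Serpina3g passed an adjusted p threshold of 0.05 upwards in cre, where 0.486% of 11732 genes did (edgeR quasi-likelihood test, Benjamini-Hochberg adjustment over all genes). Serpinb1a passed it downwards, as 0.222% of genes did. The groups of these 3 did not overlap, which held for 17.4% of genes. None of the 3 passed when all 16 libraries shared 1 estimate of the spread, where 0 genes passed in all, or when the transcripts of a gene were summed, where 11 did. The log2 fold changes stayed about as large in these fits, at 0.95 and 0.94 for Serpina3f, 0.63 and 0.64 for Serpina3g, and -0.70 and -0.69 for Serpinb1a.

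The summed level of myeloid markers was also higher in cre than in wt B1b libraries, though few markers passed singly. The sum itself was not tested. A list of 15 macrophage and monocyte markers summed to 291, 397 and 483 CPM in wt and to 574, 615 and 583 CPM in cre. These ranges did not overlap, which held singly for 17.4% of all genes tested. The mean sums were 390 CPM in wt and 591 CPM in cre. Lyz2, the lysozyme of myeloid cells, stood at 100 ± 43.4 CPM in wt and 206 ± 23.7 CPM in cre (SD, n = 3 each). Of the 14 markers tested, Csf1r passed upwards by edgeR, as 0.486% of all genes did, and 13, Lyz2 among them, did not pass. None of the 15 was at 0 in all libraries of a group. The part of these cells in the serpin values was not tested. T and NK cell markers summed to 22.2 to 24.05 CPM in wt and 17.8 to 24.1 CPM in cre.

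**Figure D3:**
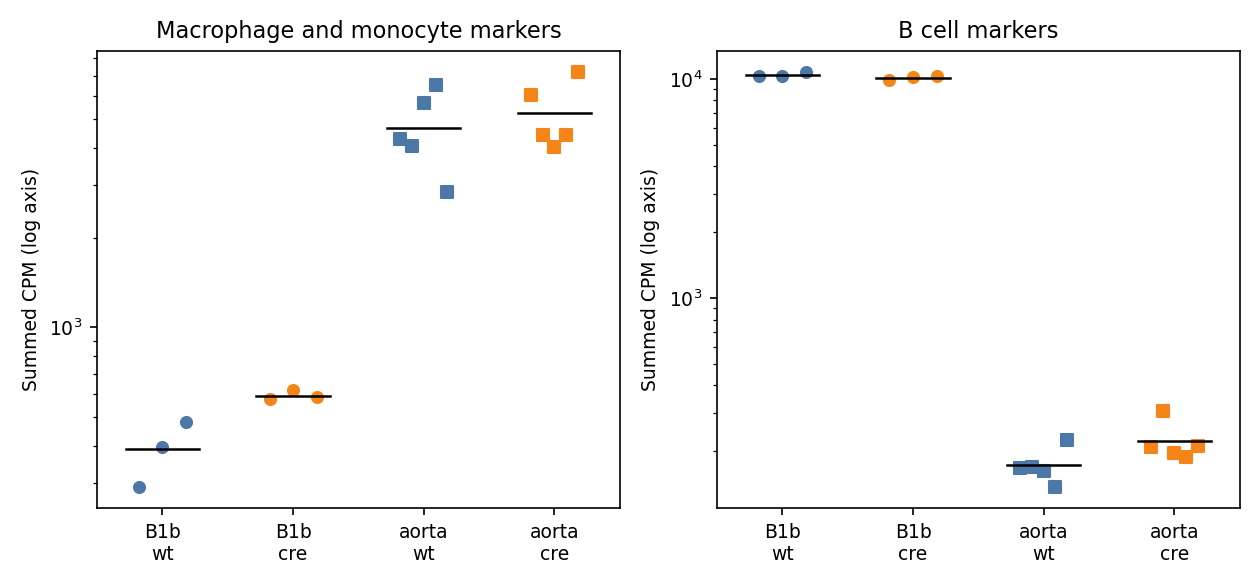
Summed CPM (log axes) of 15 macrophage and monocyte markers (left) and 10 B cell markers (right) in each library, with wt in blue, cre in orange and a line at the group mean. The macrophage sums of the B1b groups do not overlap, at 291 to 483 CPM in wt and 574 to 615 CPM in cre. Singly, 17.4% of all genes tested did not overlap between these groups.

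Proteases that these serpins inhibit, and genes of pathways known to induce them, were read in the same B1b fit. Of 3 tested serine proteases of granules, 10 cathepsins, 8 caspases, 6 inhibitors of other families and 11 acute-phase genes, 0 passed by edgeR, and 5 of these 38 genes had an unadjusted p under 0.05, as did 13.3% of all genes tested there. The lysosomal cathepsins Ctss, Ctsh and Ctsc were abundant in B1b cells, with Ctss at 660 ± 33.8 CPM in wt and 757 ± 26.5 CPM in cre, Ctsh at 407 ± 14.6 and 384 ± 6.90 CPM, and Ctsc, which activates granule proteases, at 348 ± 35.7 and 357 ± 11.5 CPM (SD, n = 3 each). Of 20 tested interferon response genes, the guanylate-binding protein genes Gbp2 and Gbp3 passed upwards, as 0.486% of all genes did. In this list 5 genes had an unadjusted p under 0.05 by edgeR, as did 13.3% of all genes. The gene lists were chosen with earlier results of these data known, so nothing is read from these calls. Gbp2 went from 193 ± 6.35 to 309 ± 24.1 CPM and Gbp3 from 217 ± 35.1 to 331 ± 16.4 CPM, log2 fold changes of 0.67 (SE 0.08) and 0.60 (SE 0.09). The list as a whole did not share this direction. Its median log2 fold change was -0.11, against -0.0049 over all genes. Of 5 other serpins tested, 0 passed by edgeR, DESeq2 or limma-voom, which called 83, 196 and 77 genes in all. By edgeR 1 of the 5 had an unadjusted p under 0.05 (13.3% of all genes did). The most abundant, Serpini1 (neuroserpin), was at 24.5 ± 3.82 and 25.1 ± 3.78 CPM.

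The aortas are separate libraries, and in them no member passed between genotypes (0 of 6, against 0.015% of 13364 genes by the edgeR quasi-likelihood test; 0 of 6 also by DESeq2 and by limma-voom). Over all genes, DESeq2 called 204 and limma-voom 1. By unadjusted p 1 of the 6 was under 0.05, as were 12.6% of genes. No member had groups without overlap, which held for 2.87% of genes. The fitted values of Serpina3f and Serpina3g were below 0 here, and neither passed. Whether the genotype difference itself differed between the sample kinds was not tested.

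Serpina3n was the most abundant member in aortas per kilobase (539 ± 218 in wt, SD, n = 5). It was at 988, 821, 1130, 1873 and 749 CPM in wt and at 756, 1406, 528, 608 and 1300 CPM in cre. Both groups spread widely, with coefficients of variation of 40.5% and 44.1%, and the log2 fold change of -0.27 had a 95% interval from -0.96 to 0.43 (edgeR adjusted p = 0.757). Serpina3g was at a log2 fold change of -0.28 (interval -1.04 to 0.47, edgeR adjusted p = 0.765), Serpina3f at -0.20 (-1.18 to 0.77, 0.876) and Serpinb1a at -0.32 (-0.80 to 0.16, 0.579). Without the 2 aortas under 2000000 counts these 4 values became -0.61, -0.64, -0.69 and -0.53 in the same order, and none passed (edgeR adjusted p from 0.256 to 0.445). Without wt replicate 4, that of Serpina3n was 0.00, and without wt replicate 1 or cre replicate 4 that of Serpina3f was 0.00 and 0.01.

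Serpinb6a was the member nearest to a genotype difference in aortas. It was at 245, 246, 281, 304 and 219.6 CPM in wt and at 352, 263, 275, 345 and 375 CPM in cre. In cre 3 libraries lay above every wt library, and the other two lay within the wt range. The log2 fold change was 0.31 (SE 0.14, unadjusted p = 0.0429), and the edgeR adjusted p over all genes was 0.380. Serpinb9 was at 82.8, 73.3, 56.3, 82.7 and 79.9 CPM in wt and 75.6, 54.5, 59.8, 80.8 and 70.9 CPM in cre, a log2 fold change of -0.13 with an interval from -0.44 to 0.19 (edgeR adjusted p = 0.741).

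**Figure D4:**
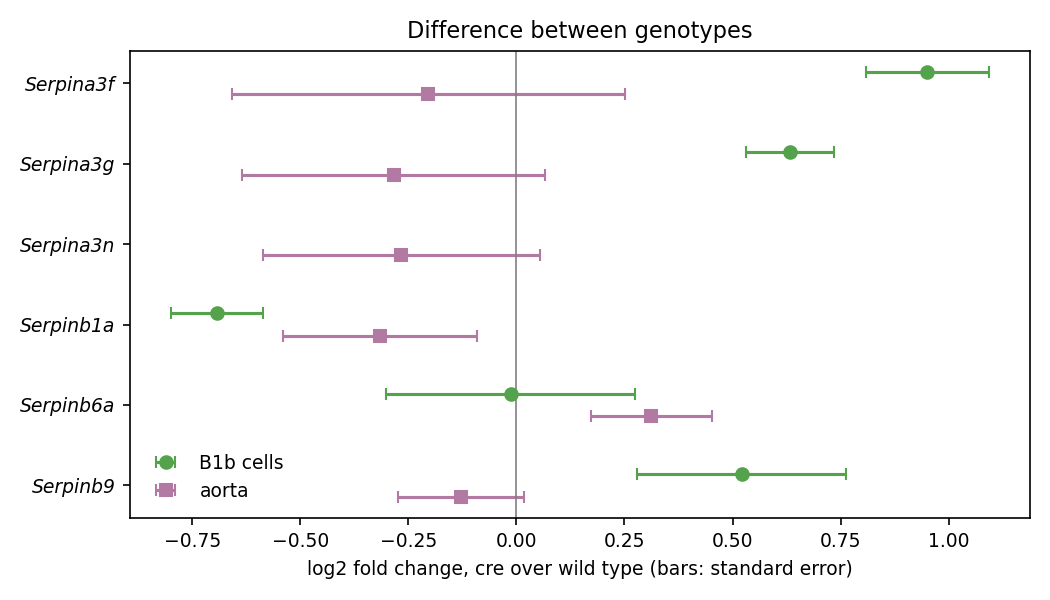
Log2 fold change of cre over wt for each member in B1b cells (circles) and aortas (squares), with bars of 1 standard error. Serpina3n has no B1b point because it had too few counts there, and the aortic points lie between -0.32 and 0.31.

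Tissue composition varied between the aortas. The macrophage list ran from 2847 to 6490 CPM in wt and from 4036 to 7222 CPM in cre. The wt aorta lowest in Serpina3g (7.41 CPM, from 14 counts in a library of 1979777) was also the lowest in macrophage markers. The wt aorta highest in Serpina3g (30.5 CPM) was the highest in them. In cre the aorta lowest in Serpina3g (9.12 CPM) was again the lowest in macrophage markers, but the one highest in Serpina3g (26.04 CPM, from 44 counts in the shallowest library) held 4432 CPM of them, not the most. A fibroblast list summed to 26238 to 33702 CPM in wt and 17834 to 30614 CPM in cre. A heart muscle list summed to 2249.5, 2798, 2920, 687 and 1526.5 CPM in wt and to 7185, 3744, 6686, 835 and 6565 CPM in cre. All 10 of its genes had fitted values above 0, with a median log2 fold change of 2.34, and 0 passed by edgeR. An adipocyte list summed to 956 to 5052 CPM in wt and 1693 to 6113 CPM in cre. Its 8 tested genes were all above 0 (median 0.71), and 0 passed. In whole tissue, fewer cells of a type and less RNA per cell cannot be told apart, and the part of cell composition in the aortic serpin values was not tested.

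Among the other serpins of the aorta, 12 were tested between genotypes, and 0 passed by edgeR, DESeq2 or limma-voom. Of all genes tested there, 0.015% passed by edgeR, while DESeq2 called 204 genes in all and limma-voom 1. Of the 12, 1, Serpine2, had an unadjusted p under 0.05 by edgeR, as did 12.6% of all genes. Serping1, the inhibitor of complement C1 and kallikrein, was at 1061 ± 118 CPM in wt and 1015 ± 194 CPM in cre, and Serpinh1, the collagen chaperone HSP47, at 1139 ± 97.2 and 1080 ± 124 CPM. Serpinf1, which encodes PEDF, was at 437 ± 54.8 and 432 ± 111 CPM. Serpine2, or protease nexin 1, had the lowest fold of these, -0.45 on the log2 scale (edgeR adjusted p = 0.330), at 694 ± 104.5 and 508 ± 137 CPM (SD, n = 5 each). Serpinb6b, a close relative of Serpinb6a, was at 72.0 ± 11.7 and 72.7 ± 12.3 CPM. Of 71 tested genes of the protease, inhibitor, acute-phase and interferon lists, 0 passed by edgeR, DESeq2 or limma-voom. By edgeR 7 of the 71 had an unadjusted p under 0.05, as did 12.6% of all genes tested there. The mast cell proteases Mcpt4 and Cma1 were at 15.9 ± 5.17 and 12.2 ± 5.32 CPM in wt and at 20.3 ± 4.55 and 14.2 ± 4.57 CPM in cre, and the cathepsins Ctsb and Ctsd at 3528 ± 922 and 2797 ± 850 CPM in wt and at 4281 ± 920 and 3634 ± 722 CPM in cre. The inhibitor of cathepsins Cstb was at 81.4 ± 13.6 CPM in wt and 112.7 ± 11.003 CPM in cre (edgeR adjusted p = 0.243).

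The clearest differences among these libraries lay between B1b cells and aorta. Within wt, 3 members were higher and 2 lower in B1b cells among the 5 with enough counts in each sample kind. Of 10867 such genes, 43.2% were higher and 29.2% lower (edgeR quasi-likelihood), so calls in either direction were common. Serpina3f was 8.62-fold higher (log2 3.11, SE 0.28, edgeR adjusted p = 4.81e-07), Serpina3g 4.67-fold (log2 2.22, SE 0.29, 2.15e-05) and Serpinb1a 4.86-fold (log2 2.28, SE 0.15, 2.43e-08). In the other direction Serpinb6a was 40.7-fold lower (log2 -5.35, SE 0.18, 6.04e-11) and Serpinb9 6.09-fold (log2 -2.61, SE 0.17, 2.95e-08). Serpina3n entered the fit only through the aortas, where it is high, so its difference is given without a test: it stood at 0.868 ± 0.381 CPM in B1b cells (SD, n = 3) and 1112 ± 450 CPM in aortas (SD, n = 5), a fitted log2 value of -10.28 that rests on 5 to 10 counts in each B1b library. Sample kind goes with the way cells were collected, sorted from lavage or frozen as tissue, and the pair cannot be told apart.

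Within cre, which uses none of those libraries, Serpina3f, Serpina3g and Serpinb1a were again higher and Serpinb6a and Serpinb9 lower, where 41.5% and 28.3% of the same 10867 genes passed. Serpina3f was 21.5-fold higher (log2 4.43, SE 0.35, edgeR adjusted p = 2.81e-07), Serpina3g 9.40-fold (log2 3.23, SE 0.27, 4.34e-07) and Serpinb1a 3.93-fold (log2 1.97, SE 0.23, 7.97e-06). Serpinb6a was 49.2-fold lower and Serpinb9 3.76-fold (log2 -5.62 and -1.91, edgeR adjusted p = 1.39e-09 and 2.95e-05). Serpina3n, again untested, stood at 0.678 ± 0.265 CPM in B1b cells and 920 ± 406 CPM in aortas, a fitted log2 value of -10.29. The median log2 fold change over all genes in this comparison was -0.12, small against these values. Of the 4 other serpins with enough counts in each sample kind, Serpinb6b, Serpinb8, Serpine2 and Serpini1, all 4 were lower in B1b cells in both genotypes.

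**Figure D5:**
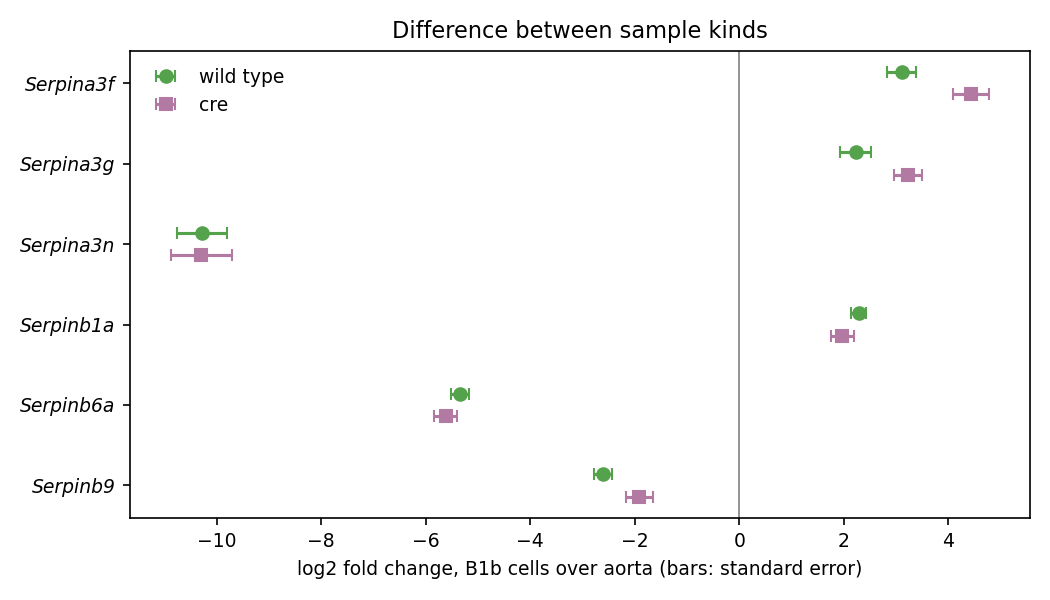
Log2 fold change of B1b cells over aorta for each member within wt (circles) and within cre (squares), with bars of 1 standard error. Serpina3f, Serpina3g and Serpinb1a lie between 1.97 and 4.43, and the other 3 members between -10.29 and -1.91. Serpina3n, at -10.28 in wt and -10.29 in cre, entered the fits only through the aortas and is shown without a test.

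The genes around them divided in the same comparison. Counts here cover genes with enough counts in each sample kind, within wt. Of all 10867 such genes 43.2% were higher in B1b cells and 29.2% lower, so calls in either direction were common. Of 9 cathepsins, Ctsc and Ctso were higher in B1b cells and 6 were lower, among them Ctsl at 5.05 ± 1.49 against 1193 ± 328 CPM. Of 8 caspases 6 were higher and 0 lower, led in level by Casp8 at 119 ± 10.4 against 44.4 ± 7.89 CPM. Of 6 inhibitors of other families all 6 were lower, among them the cystatin Cst3 at 117 ± 6.96 against 1222 ± 142 CPM. Of 20 interferon response genes 8 were higher, Gbp2 and Gbp3 among them, and 8 were lower. Of 11 acute-phase genes 3 were higher, including the interleukin 6 receptor gene Il6ra at 158 ± 11.9 against 34.7 ± 6.22 CPM, and 5 were lower, including Osmr, the oncostatin M receptor gene, at 0.984 to 3.33 CPM against 194 to 277 CPM.

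Within groups the members varied partly together. After each group's mean was subtracted from log2 CPM, Pearson's r over the 16 libraries was 0.86 for Serpina3g with Serpinb1a, 0.75 for Serpinb1a with Serpina3n, and 0.70 for Serpina3g with each of Serpina3n and Serpina3f. Serpinb9 stood apart, at -0.29 with Serpina3f and -0.02 with Serpina3g. The values come from the same libraries, so depth and tissue composition are common to them, and reads that match several Serpina3 genes may be. They are descriptions only.

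Over 10832 genes (10833 for Serpina3n), those most like each member by the same measure were as follows. How high the top values among so many genes would stand without any link was not estimated. For Serpina3g they were Selplg, the P-selectin ligand of leukocytes (r = 0.95), Unc93b1, a chaperone of endosomal Toll-like receptors (0.95), and Bin2 (0.94). For Serpinb1a they were Fmnl1, a formin of leukocytes (0.95), Ciita, the master regulator of MHC class II genes (0.91), and Tlr1 (0.90). For Serpina3f they were Arid3b, Dhps and Apobec3 (0.90, 0.89 and 0.89), and for Serpina3n Ube2g2, Cdk5rap3 and Ezr (0.93, 0.85 and 0.85). Serpinb6a was most like Mfsd12, Rgl1 and Rnh1 (0.96, 0.92 and 0.91), and Serpinb9 most like B4gat1, Saraf and Mindy3 (0.92, 0.88 and 0.86).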

How the data were processed

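The authors deposited raw counts of reads for each RefSeq transcript and sample, without normalization. The submitters' processing notes name CASAVA (1.8.2), STAR (2.5.2b) and mm10. Which tool and annotation gave the counts, and whether strand was used, is not given in the sources used here. Per the labels' protocols, the RNA came from frozen aortas and from B1b cells sorted out of peritoneal fluid, and the library kit was KAPA mRNA Hyperprep.

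Of 35745 transcripts, 35440 took a name from RefSeq, 188 from GENCODE and 117 none (0.416% to 4.17% of the counts of a library, kept as entries of their own). Transcripts of a gene shared reads, so the one of highest total was kept. Lengths come from 62 of 63 matched GENCODE M21 serpin transcripts. Sequences are RefSeq's.

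Each comparison was fitted on its own 2 groups with edgeR 4.0.16 in R 4.3.3 (TMM, filterByExpr, robust quasi-likelihood F test), with Benjamini-Hochberg adjustment over all genes tested and a threshold of 0.05. Intervals are 95% intervals. Log2 CPM used a prior count of 2. Replicate numbers follow sample order and pair nothing. Alternatives were DESeq2 1.42.0, limma-voom (limma 3.58.1), other scalings, no filter, other transcript choices, 1 fit of all 16 libraries, and fits without single or shallow libraries. The fit was also run on simulated counts with known changes, for the genotype comparisons only, and the outcome is not reported here.

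The members and gene lists were chosen with earlier results of these data known. Named genes were the 6 members; other serpins past the threshold between genotypes or at 5 CPM or more in a group; members of each list past the threshold between genotypes and the most abundant ones; and the 3 genes most like each member. Not every gene the rule takes in is described, and some are not reported here.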

Additional observations from a re-analysis of the deposited data

How the results depend on the processing

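Each comparison was repeated with DESeq2, limma-voom, RLE and upper-quartile scaling, no filter on low counts, the transcript of lowest total, the sum of transcripts, 1 fit of all 16 libraries and, where aortas entered, without those under 2000000 counts. In B1b cells, 3 members and 2 genes of the protease, inhibitor, acute-phase and interferon lists passed between genotypes. With transcripts summed these became 0 and 1 (11 genes in all), with all 16 libraries in 1 fit 0 and 0 (0 genes in all), and with no filter 3 and 4. Without single B1b libraries they were 3 in every fit and 2 to 3. The number of genes called in all was 83, and it was 196 by DESeq2, 327 with no filter, and 35 to 103 without single libraries. The log2 fold changes of Serpina3f, Serpina3g and Serpinb1a without single libraries ran from 0.81 to 1.06, from 0.54 to 0.73 and from -0.75 to -0.57. In aortas 0 members passed under every alternative run, while 2 genes were called in all, 204 by DESeq2, 47 in the fit of all libraries and 92 without the shallow aortas. Serpina3f changed sign there without cre replicate 4, from -0.20 to 0.0058 (edgeR adjusted p = 0.998; over the fits without single libraries its value ran from -0.59 to 0.0058 and its adjusted p from 0.541 to 0.998). Between B1b cells and aorta, the 5 members with enough counts in each kind passed in the reported direction under every alternative run. No paired analysis was possible because the replicate numbers come from sample order and the labels give none. Depth limits Serpina3n in B1b cells (3 to 10 counts) and Serpina3f in aortas (6 to 40 counts).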
